A study of Rattus norvegicus with 6 samples.

Results

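The 10 genes described here code for the inducible transcription factors of the AP-1 and EGR families: Fos, Fosb, Fosl1, Fosl2, Jun, Junb, Jund, Egr1, Egr2 and Egr3. They were chosen by gene name, and every probe carrying one of these names in the array file of Ta replicate 1 was taken, which gave 17 of the 45598 probes. Of the 10 genes, 9 had a probe bright enough to be tested, among 19576 genes tested in all. RNA was taken from rat bone marrow stromal cells, isolated from tibia marrow and kept in culture for 7 days, and each array carried the RNA of 1 culture, labelled with Cy3. The Ta group (n = 3) grew on a titanium surface modified with tantalum, and the Ti group (n = 3) on a simple titanium surface; both metals are used for implants in bone. The series' design text states independent experiments in each group, and the labels name no further treatment. The treatment text of the Ti samples also names the tantalum-modified surface, so groups follow the titles and the culture label. The age and strain of the rats, the passage of the cells and the time from the last change of medium to lysis are not given in the sources used here.

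FOS and JUN proteins are leucine zipper factors that bind DNA as pairs, and these pairs form AP-1. Among FOS and JUN proteins, a FOS protein needs a JUN partner, whereas JUN proteins also pair with each other. EGR proteins bind GC-rich sites through zinc fingers. Fos, Fosb, Junb, Egr1, Egr2 and Egr3 are classic immediate early genes: serum, growth factors or stretch raise their RNA within minutes through MAP kinases and serum response factor (SRF), which binds the CArG box, and the RNA is soon degraded. Jund is by contrast expressed at a fairly steady level, and Fosl1 and Fosl2 (Fra-1 and Fra-2) usually follow later. In bone, AP-1 factors act in both osteoblasts and osteoclasts, and Egr2 is also expressed in cells of the macrophage lineage.

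The upstream sequences of Egr1 and Egr2 are shown because they were the members with CArG boxes in a table of RefSeq promoters (GRCr8, from 250 bases before to 50 after the start), and because the RNA of both was lower in every Ta culture than in every Ti culture. The table held 7 of the 10 members; Fos, Jun and Egr3 were not matched. Each line gives the 150 bases before the start, 5′ to 3′ on the strand of the gene, with CArG boxes in capitals. The Egr1 window is chr18:26736928-26737077 on the plus strand, and the Egr2 window is chr20:21054442-21054591 on the minus strand.
Egr1: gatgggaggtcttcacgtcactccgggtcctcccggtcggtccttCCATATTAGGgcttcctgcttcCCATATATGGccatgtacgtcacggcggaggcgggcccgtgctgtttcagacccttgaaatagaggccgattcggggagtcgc
Egr2: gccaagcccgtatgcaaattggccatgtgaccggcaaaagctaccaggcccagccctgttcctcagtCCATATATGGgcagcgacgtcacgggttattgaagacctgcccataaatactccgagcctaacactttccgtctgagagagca

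The Egr1 window held 2 CArG boxes, starting 105 and 83 bases before the start. The Egr2 window held 1, also 83 bases before the start, and its letters were those of the nearer Egr1 box. Of 33469 promoters of this length in the table, 1.64% held a CArG box on either strand, and 7 promoters, or 0.0209%, held 2 or more. The cAMP response element TGACGTCA stood in 1.83% of promoters and in that of Jund, 221 bases before the start. The EGR site GCGTGGGCG stood in 0.544% of promoters and likewise in that of Jund, 76 bases before the start. The ETS core CCGGAA stood in 15.0% of promoters and in that of Egr2, 179 bases before the start and so outside the window printed. The AP-1 site TGANTCA stood in 7.33% of promoters and in 0 of the 7 members' promoters. All motifs were read on both strands and do not overlap each other in these promoters. The promoters of Fosb, Fosl1, Fosl2 and Junb held 0 matches to these motifs. Of these genes, Fosb also had lower RNA in every Ta culture than in every Ti culture. A match describes the letters in the window and does not show binding.

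**Figure D1:**
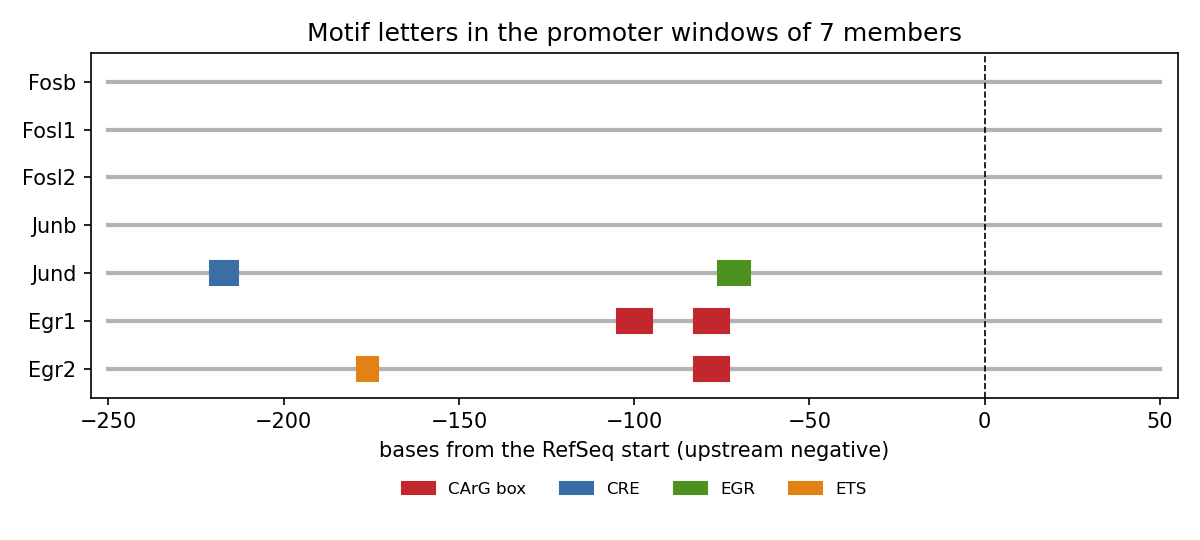
Motif matches in the promoters of the 7 members found in the RefSeq table. The horizontal axis is the distance from the start of the gene in bases, and each coloured box is 1 match; Egr1 has 2 CArG boxes, Egr2 has 1 at the position of the nearer Egr1 box, and Jund has a CRE and an EGR match.

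Signal well above background was found in 62.7% to 65.9% of spots, depending on the array. All 6 arrays lay on 1 slide, the Ta arrays and Ti replicate 1 in its first row and Ti replicates 2 and 3 in its second, and the extraction software put a note to evaluate on Ti replicate 2 alone. The first principal component held 67.6% of the variance and ordered the arrays as Ti replicates 3, 1 and 2, then Ta replicates 1, 2 and 3. Levels below are log2 spot intensities scaled to the 75th percentile of each array, and differences are Ta minus Ti on the log2 scale with the standard error (SE) of limma. P-values are from limma, two-sided and Benjamini-Hochberg adjusted over all genes tested, with a threshold of 0.05. Probes differ in how brightly they bind, so the level of 1 gene is not set against that of another.

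Of the 9 tested members, 3 passed the test: Fosb and Egr1 were lower on Ta and Fosl2 was higher. In the same fit 4.15% of all genes tested passed, 1.48% lower and 2.67% higher on Ta. Fos and Egr2 had larger differences than either lowered gene but did not pass. Fosl1, Jun, Junb and Jund differed by less than 0.25 on the log2 scale. In 6 of the 9 members the 3 Ta arrays all lay on 1 side of the 3 Ti arrays, 5 below and 1 above. That was so for 35.9% of all genes tested, 16.4% below and 19.5% above. The median difference of the 9 members was −0.19, beside 0.03 for all genes tested. These groups are bulk cultures, so fewer cells of a type and less RNA per cell cannot be told apart.

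**Figure D2:**
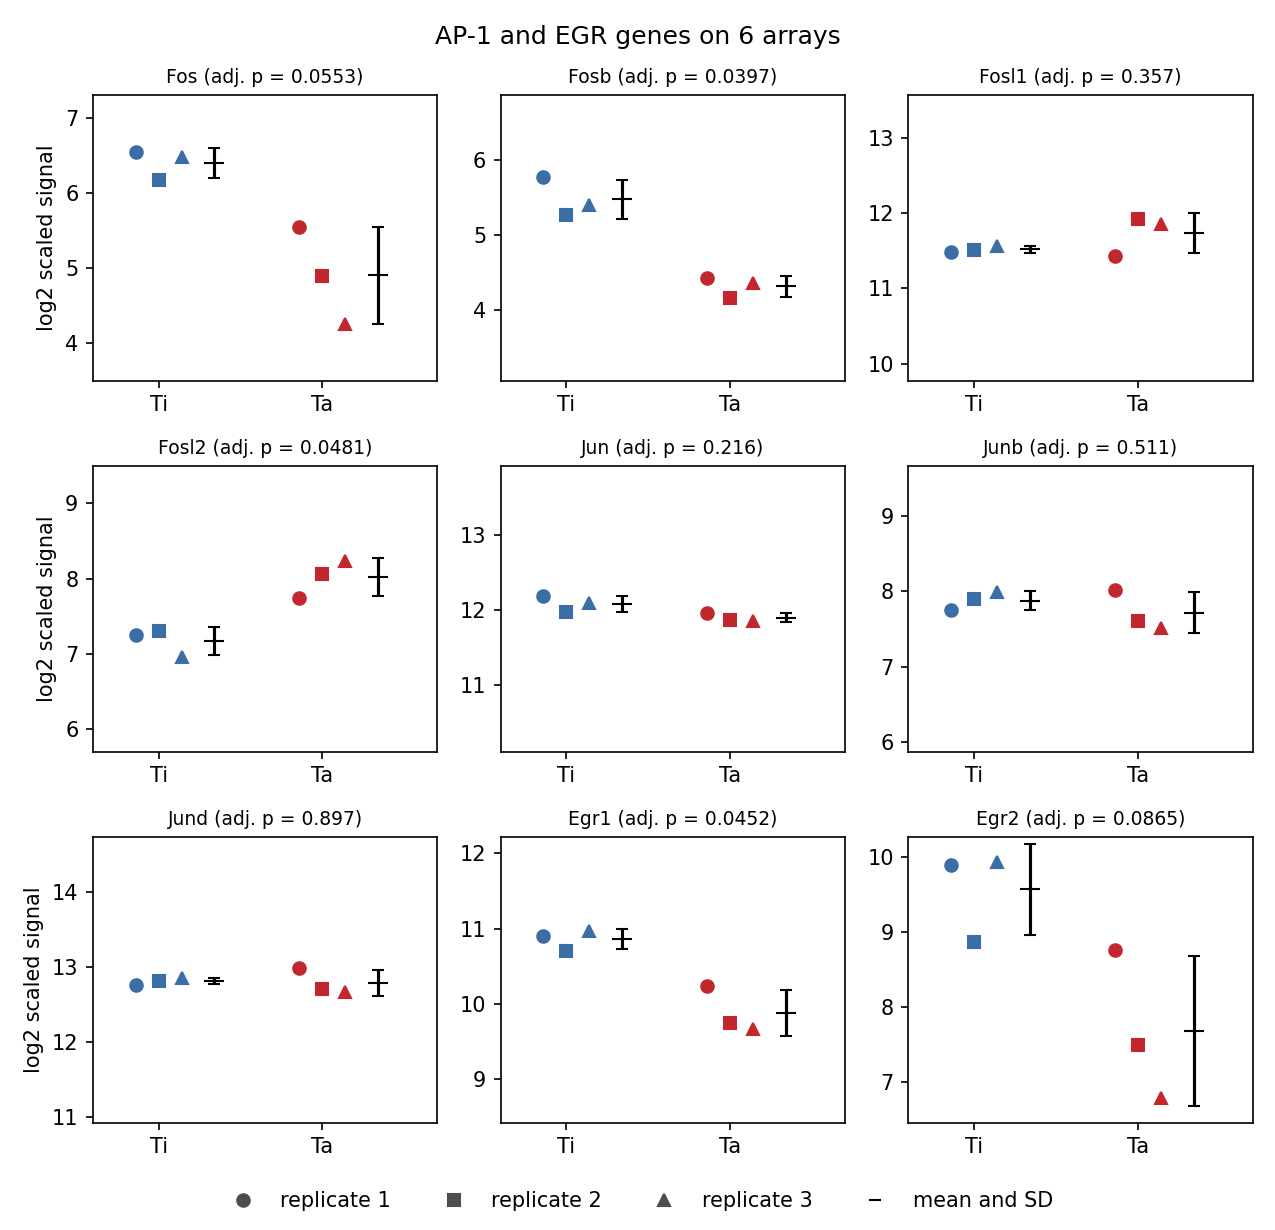
Level of each tested member on the 6 arrays, on the log2 intensity scale, with 1 point per culture (Ti blue, Ta red, a symbol for each replicate) and the mean and SD of each group in black. The Ta points of Fos, Fosb, Egr1, Egr2 and Jun all lie below the Ti points, those of Fosl2 lie above, and those of Fosl1, Junb and Jund overlap with Ti.

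Among the FOS proteins, Fos, the prototype of the family and a strong activator in pairs with JUN, had a level of 5.54, 4.89 and 4.26 in Ta replicates 1, 2 and 3 and of 6.54, 6.17 and 6.48 in Ti replicates 1, 2 and 3. All Ta cultures lay below all Ti cultures, and the Ta cultures spread over a wider range. The difference in Fos was −1.50 ± 0.32 (SE, n = 3 per group), 2.83-fold lower on Ta, with an adjusted p of 0.0553 in limma. The Fos probe was dim, with unscaled intensities between 17.2 and 109, though it was well above background on all 6 arrays. With a background correction that adds an offset (normexp), the difference in Fos shrank to −0.51 and passed, with a limma adjusted p of 0.0213.

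Fosb, the closest relative of Fos, had a level of 4.43, 4.16 and 4.36 in the Ta cultures and of 5.77, 5.26 and 5.40 in the Ti cultures. The groups were separated by 0.83, more than the range within either group. Fosb was lower on Ta by a difference of −1.16 ± 0.15 (SE, n = 3 per group), 2.23-fold, with a limma adjusted p of 0.0397. Its probe was likewise dim, with unscaled intensities between 17.2 and 63.3, and normexp gave a smaller difference of −0.26 that still passed.

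Fosl2, a FOS protein that lacks the strong activation domain of Fos, moved the other way. The level of its brightest probe was 7.74, 8.07 and 8.24 in the Ta cultures and 7.25, 7.30 and 6.95 in the Ti cultures, so all Ta cultures were above all Ti cultures. Fosl2 was higher on Ta by 0.85 ± 0.16 (SE, n = 3 per group), 1.80-fold, with a limma adjusted p of 0.0481. The array measures Fosl2 with 3 probes of 60 bases. Their letters are printed because 2 probes have the same sequence, so the array measures only 2 places of the transcript, starting at positions 535 and 731 per the array file. The letters are those in the array files, whose headers name the rat build rn4, and the files give these probes no place in the genome.
A_44_P1152997: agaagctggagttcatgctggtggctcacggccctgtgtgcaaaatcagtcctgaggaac
A_44_P1082224 and A_64_P065063: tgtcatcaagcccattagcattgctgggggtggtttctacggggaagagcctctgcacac
The twin probes gave Fosl2 differences of 0.64 and 0.82. In limma over all probes the first had an adjusted p of 0.0732 and the second passed with 0.0489. With the mean of its probes in place of the brightest, the difference in Fosl2 was 0.77 and the limma adjusted p was 0.0516, just outside the threshold.

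Fosl1, which like Fosl2 lacks the strong activation domain, had a level of 11.43, 11.92 and 11.86 in the Ta cultures and of 11.48, 11.51 and 11.57 in the Ti cultures. Ta replicate 1 lay below all Ti cultures and the other Ta cultures lay above them. The difference in Fosl1 was 0.22 ± 0.14 (SE, n = 3 per group) with a 95% interval from −0.13 to 0.57 and a limma adjusted p of 0.357. Without Ta replicate 1 the difference in Fosl1 was 0.37 and passed, with a limma adjusted p of 0.0412. In that fit 3210 of 19576 genes passed, beside 812 with all arrays. With any other array left out Fosl1 did not pass.

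The JUN genes showed smaller differences. Jun, the prototype partner of Fos in AP-1, had a level of 11.96, 11.87 and 11.85 in the Ta cultures and of 12.18, 11.96 and 12.09 in the Ti cultures. The groups did not overlap, but the gap between them was 0.006. The difference in Jun was −0.19 ± 0.09 (SE, n = 3 per group), with a 95% interval from −0.40 to 0.03 and a limma adjusted p of 0.216. This probe is printed on the array 10 times, and its spots on 1 array had an SD between 0.039 and 0.070. A second Jun probe gave 0.07, so the direction differs between the probes.

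Junb, which can hold back the activity of Jun, had a level of 8.02, 7.61 and 7.51 in the Ta cultures and of 7.75, 7.90 and 7.99 in the Ti cultures. The groups overlapped, since Ta replicate 1 was the highest of the 6. The difference in Junb was −0.16 ± 0.15 (SE, n = 3 per group), with a 95% interval from −0.54 to 0.21.

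Jund had a level of 12.99, 12.71 and 12.66 in the Ta cultures and of 12.76, 12.81 and 12.86 in the Ti cultures, and here too Ta replicate 1 was the highest. The difference in Jund was −0.03 ± 0.11 (SE, n = 3 per group), with a 95% interval from −0.29 to 0.24, and its second probe gave −0.17. Neither Junb nor Jund passed the test, with limma adjusted p of 0.511 and 0.897, and both intervals include 0.

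Among the EGR proteins, Egr1, the most widely induced of them, had a level of 10.23, 9.74 and 9.66 in the Ta cultures and of 10.91, 10.71 and 10.97 in the Ti cultures. All Ta cultures were below all Ti cultures. Egr1 was lower on Ta by a difference of −0.98 ± 0.17 (SE, n = 3 per group), 1.98-fold, with a limma adjusted p of 0.0452. A second Egr1 probe, which lies elsewhere in the gene, gave −1.06 and an adjusted p of 0.0459 in limma over all probes. Counted by probe, 5 of the 15 tested probes of members passed, beside 4.31% of all probes tested. These 5 belong to Fosb, Fosl2 and Egr1, the members that passed by gene. Probes of 1 gene read the same RNA, so the count adds no separate evidence.

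Egr2 had a level of 8.76, 7.50 and 6.79 in the Ta cultures and of 9.89, 8.87 and 9.94 in the Ti cultures. Ta replicate 1 lay only 0.11 below Ti replicate 2, and the Ta cultures spanned 1.97. By the brightest probe, the difference in Egr2 was the largest among the tested members, −1.89 ± 0.54 (SE, n = 3 per group), 3.69-fold lower on Ta. It did not pass, with a limma adjusted p of 0.0865. A second Egr2 probe gave −0.89 with an adjusted p of 0.0652 in limma over all probes, also not passing. With the mean of its probes the difference in Egr2 was −1.39, smaller in size than the −1.50 of Fos.

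Egr3 had 2 probes, neither bright enough to be tested. The first exceeded background clearly on 0 Ta arrays and on 1 of the 3 Ti arrays, and the second on none (0) of the 6. The first had values of 3.25, 1.39 and 1.68 in the Ta cultures and of 3.79, 1.77 and 3.80 in the Ti cultures. The dimmest signals well above background lay between 3.37 and 3.68 on these arrays, so no fold is given for Egr3.

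**Figure D3:**
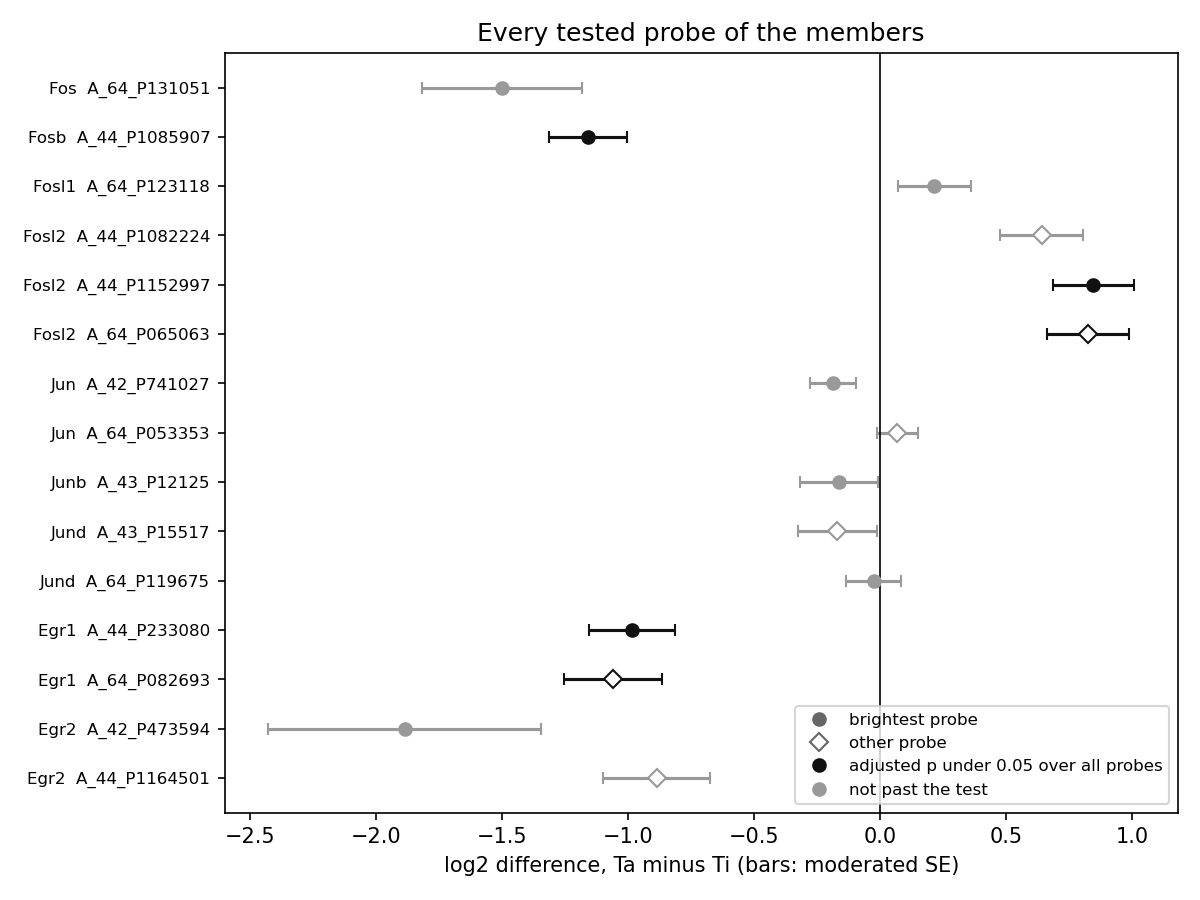
Log2 difference, Ta minus Ti, of each of the 15 tested probes of the members, with the limma standard error as a bar; black marks probes past the test over all probes and diamonds mark probes that are not the brightest of their gene. The Egr1 probes lie near −1, the Egr2 probes are both negative but differ in size, the 3 Fosl2 probes lie between 0.64 and 0.85, and the Jun probes lie on opposite sides of 0.

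The members with the largest negative differences shared their extreme cultures. In Fos, Fosb, Egr1 and Egr2, Ta replicate 1 was the highest Ta culture in 4 of 4 genes, and Ti replicate 2 was the lowest Ti culture in 4 of 4. Jun had the same extremes. These 4 genes were taken for their differences in these data, and the share of all genes with these extremes was not counted. From highest to lowest, Egr1 and Egr2 both ran through Ti replicates 3, 1 and 2 and then Ta replicates 1, 2 and 3, and Fosl2 ran through the same sequence from lowest to highest. Fos and Fosb each had another order within the groups. Of all genes tested, 2.84% ran from highest to lowest as Egr1 and Egr2 did, and 2.69% from lowest to highest as Fosl2 did. The arrays stand in the same sequence along the first principal component, whose sign is arbitrary. The SD within groups was 0.82 for Egr2, larger than in 98.5% of genes, and 0.48 for Fos, larger than in 92.8%. The median over the 9 tested members was 0.21, beside 0.16 over all genes.

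The calls depended on which arrays were included. When 1 array among Ta replicates 2 and 3 and Ti replicates 1 and 3 was dropped, no member (0) passed the test, and neither did any gene at all (0 in limma, beside 812 with all arrays). At an unadjusted p under 0.05, all 6 arrays gave 4 members lower and 1 higher, beside 13.2% and 16.8% of all genes. Without Ta replicate 1, 3210 of the 19576 genes tested passed in limma. Among them were 6 members: Fosb, Egr1 and Fosl2 again, Fos with a difference of −1.82, Egr2 with −2.42, and Fosl1. Without Ti replicate 2, 1561 genes passed, among them Fosb and Egr1. Fosl2 missed narrowly there, with a limma adjusted p of 0.0501. Slide row as a block gave −1.45 for Fosb, −1.03 for Egr1 and 0.76 for Fosl2, and none (0) of the members passed.

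**Figure D4:**
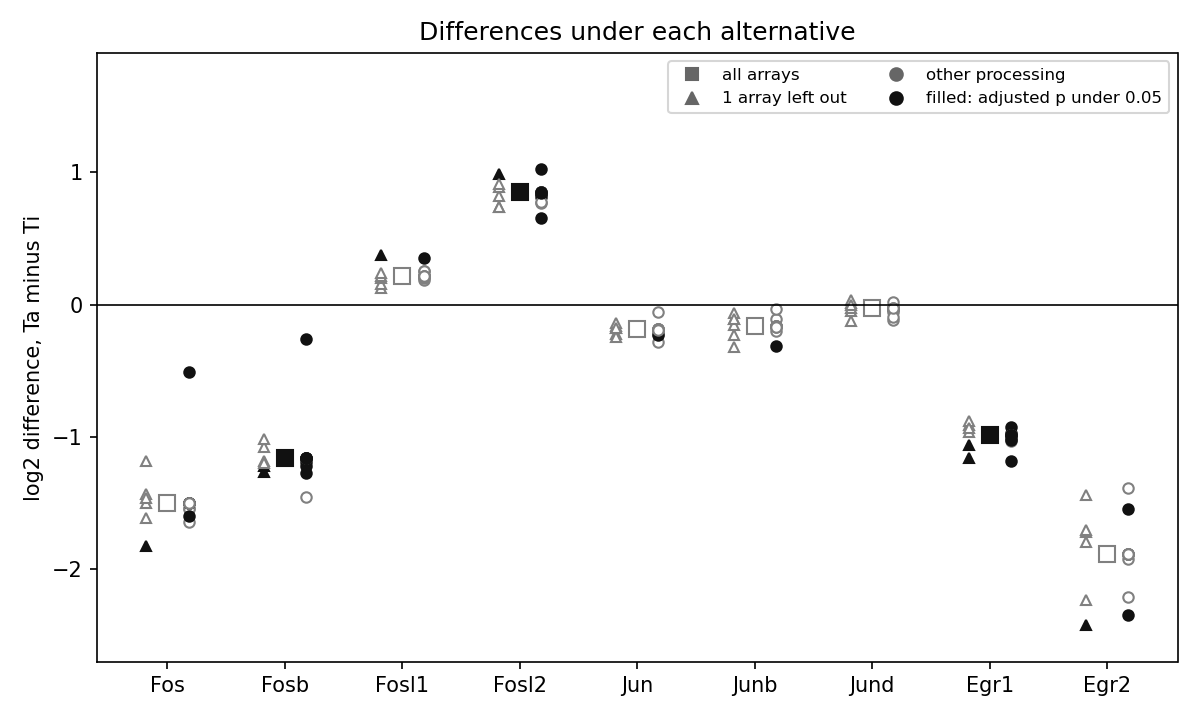
Log2 difference, Ta minus Ti, of each tested member with all arrays (squares), with 1 array left out (triangles) and under other processing (circles); filled symbols have an adjusted p under 0.05. Fos, Fosb, Jun, Junb, Egr1 and Egr2 stay below 0 and Fosl1 and Fosl2 above it under every setting drawn, while Jund lies on both sides of 0.

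The patterns of Fos, Fosl1 and Egr1 over the 6 arrays were compared with those of other tested genes. The other members and genes with only a placeholder name were left out. The measure was the root mean square (RMS) difference of the centred log2 values. Nearest to Fos were Ccdc80 (RMS 0.0956), Pltp (0.105) and Nptx1 (0.105). Ccdc80 codes for a secreted matrix protein, Pltp for a phospholipid transfer protein and Nptx1 for a secreted pentraxin. Nearest to Egr1 were Ccn5 (RMS 0.0489), a matricellular protein, Scarb1 (0.0612), the HDL receptor, and B4galt6 (0.0618), a glycosyltransferase. Nearest to Fosl1 were Timm8a1 (RMS 0.0274), a mitochondrial import factor, Mad2l1 (0.0330), a spindle checkpoint protein, and Slc25a13 (0.0354), a mitochondrial carrier. Between members, Junb and Jund were nearest (RMS 0.0985), Fosb and Egr1 differed by 0.212, and Fosl2 and Egr2 were farthest apart at 1.60.

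The wider pathway was described with 8 lists that held 124 distinct tested genes. Of these, 6 rose on Ta and none (0) fell, where 2.67% of all genes tested rose and 1.48% fell. The median difference was −0.01, beside 0.03 for all genes tested. Among inducers of immediate early transcription, such as SRF, its cofactors and CREB, 0 of 15 tested genes passed and the median was −0.04. The largest differences there were in Mef2c, a MADS box factor, at −1.36 (limma adjusted p 0.0763), and in Mrtfb, an SRF cofactor, at 0.44 (adjusted p 0.0807). Of the MAP kinases and related upstream signalling genes, 0 of 17 passed and the median was −0.12. Map2k7, which activates JNK, differed by 0.87 (limma adjusted p 0.102), and Rps6ka3, a kinase downstream of ERK, by −0.57 (adjusted p 0.0672).

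Negative feedback genes include phosphatases that switch MAP kinases off and proteins that degrade immediate early mRNAs. Of 18 such genes 16 were tested, 0 passed, and the median was −0.20. The Sprouty genes, inhibitors of growth factor signalling, had the largest differences, with Spry4 at 1.26 (limma adjusted p 0.073) and Spry2 at −0.63 (adjusted p 0.124). Of 5 EGR relatives and co-regulators 3 were tested and 0 passed. Nab1, a corepressor of EGR proteins, differed by 0.28 and Sp1, which binds GC-rich sites, by −0.09.

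Among other leucine zipper factors that can pair with or compete with AP-1, 1 of 14 rose, 0 fell and the median was −0.03. The riser was Maff, a small MAF protein, at 0.76 ± 0.14 (SE, n = 3 per group; limma adjusted p 0.0481). Atf3, a stress-induced factor of this list singled out after its values were seen, differed by −1.77 (limma adjusted p 0.067). Of 30 other immediate early genes, 2 rose, 0 fell and the median was −0.06, with 13 differences above 0 and 17 below. The risers were the kinase gene Pim1, at 1.04 ± 0.18 (limma adjusted p 0.0449), and Trib1, a pseudokinase gene, at 0.48 ± 0.09 (adjusted p 0.0486). The orphan nuclear receptor genes Nr4a3 and Nr4a1, likewise singled out after their values were seen, differed by −1.19 (limma adjusted p 0.0682) and −1.03 (adjusted p 0.0584). Nr4a2, the other member of that family, differed by 0.04 (limma adjusted p 0.893), with groups that overlapped. Nearer the threshold in this list were Csrnp1 at 0.43 (limma adjusted p 0.0517), Ier3 at 0.95 (adjusted p 0.0522) and Klf2 at −0.77 (adjusted p 0.0522). Every Ta culture was above every Ti culture in Csrnp1 and Ier3, and below in Klf2.

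Of 20 genes described as AP-1 targets 18 were tested, 3 rose, 0 fell and the median was 0.38. Ptgs2, which codes for the prostaglandin synthase COX-2, had a level of 13.44, 14.58 and 14.76 in the Ta cultures and of 11.59, 12.42 and 11.90 in the Ti cultures. It rose by 2.29 ± 0.39 (SE, n = 3 per group; limma adjusted p 0.0449). The cytokine gene Il6 had a level of 7.36, 8.85 and 8.28 in the Ta cultures and of 5.94, 6.24 and 5.88 in the Ti cultures. It rose by 2.14 ± 0.37 (limma adjusted p 0.0449). Hmox1, which codes for heme oxygenase, rose by 0.87 ± 0.14 (limma adjusted p 0.0425). Of the 18 differences 13 were above 0 and 5 below; genes of this list also respond to factors other than AP-1. Of 12 heat shock genes, taken as a readout of stress or handling, 11 were tested and 0 passed, with a median of 0.16. All 11 differences were above 0, the largest in Hsph1 at 0.75 (limma adjusted p 0.0511) and Hsp90aa1 at 0.39 (adjusted p 0.162).

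**Figure D5:**
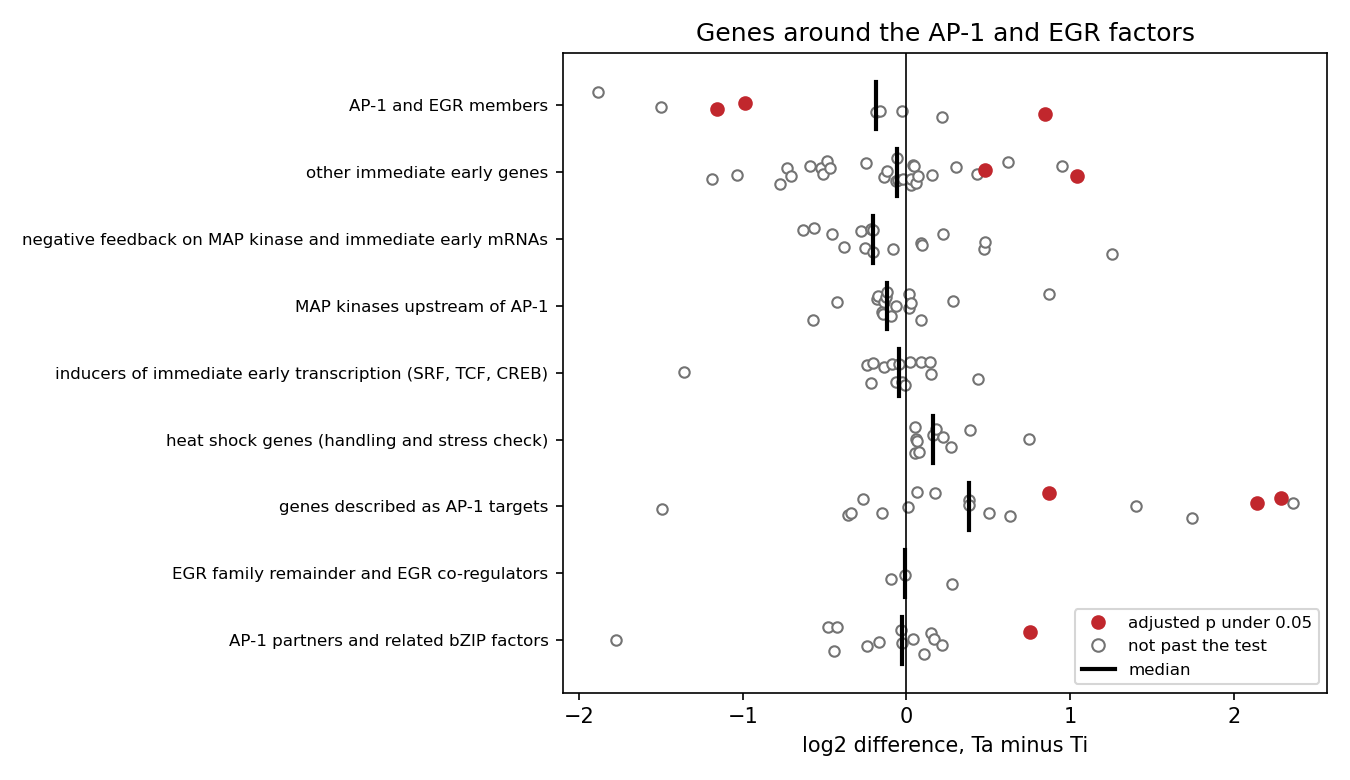
Log2 difference, Ta minus Ti, of every tested gene in each pathway list and of the tested members, with the median as a black line and genes past the test filled. Most lists centre near 0, genes described as AP-1 targets have a median of 0.38, and the 11 heat shock genes all lie above 0.

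Markers of other cells that marrow cultures can hold were read on the same arrays. Of 13 macrophage markers 13 were tested and 0 passed. Of the differences 12 were below 0, and the median was −1.24. The differences were uneven, with −3.08 in C1qc. Cd68, Itgam and Adgre1 differed by −0.28, −0.22 and −0.15, with groups that overlapped. The summed signal of the 13 markers was 15.07 to 16.79 on the log2 scale in the Ta cultures and 17.05 to 17.51 in the Ti cultures. The sum ordered the 6 arrays as Egr1 and Egr2 did, which is also their sequence along the first principal component. It adds linear signals, and Lyz2 was the brightest of these markers on every Ti array. Groups did not overlap in 8 of the 13 markers, beside 35.9% of all genes tested. Among these 8 was Cd14, which was higher on Ta by 0.34. Of 7 mast cell markers 5 were tested and 4 fell, where 1.48% of all genes tested fell. The sum of the 5 was 7.91 to 8.42 on Ta and 9.95 to 10.84 on Ti, and Mcpt8 was the brightest of them on every array. Cma1, a chymase gene, was well above background on 0 Ta arrays and Cpa3 on 1. Fcer1a differed by −0.25 (limma adjusted p 0.685). Of 7 neutrophil markers 3 were tested and 2 rose, where 2.67% of all genes tested rose. The sum of the 3 was 8.03 to 9.27 on Ta and 6.36 to 7.08 on Ti. The sum of 5 endothelial markers overlapped between groups, and none (0) of the lymphoid and erythroid markers on the array was bright enough to be tested. Of 12 mesenchymal stromal markers 11 were tested, and the sum was 17.88 to 18.03 on Ta and 17.82 on every Ti array. Thy1 and Cxcl12 rose among these markers and 0 fell. The stromal sum too adds linear signals, and its bright genes went different ways. Cxcl12 differed by 1.06, but Col1a1, the brightest on every array, by −0.07, Itgb1 by −0.25 and Col1a2 by −0.15. The higher sum on Ta therefore does not show a rise of the stromal markers as a set. Of the 11 stromal differences 6 were above 0 and 5 below, with a median of 0.07. The part of macrophages, mast cells or neutrophils in the differences of the AP-1 and EGR genes was not tested.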

How the data were processed

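Total RNA of 3 Ta and 3 Ti cultures was measured on one-colour Agilent arrays. The deposited tables give linear intensities of spots. Feature Extraction removed background and spatial trends and did not scale arrays to each other, per the file headers; the submitters' processing notes give its version as 12.0 and also name limma. The log2 intensity was reduced by each array's 75th percentile, and the mean percentile added back. Outlier spots were left out and spots of a probe averaged. Probes well above background on at least 3 of 6 arrays were kept, and a gene was its brightest probe. Names came from a RefSeq table (GRCr8) where matched, otherwise from the array file of Ta replicate 1. Groups were compared with limma 3.58.1 in R 4.3.3, unpaired, and the fit was tested on simulated data. The number of arrays limits the precision.

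Members and gene lists were chosen with earlier results of these data known. Named were all members, in each list up to 4 genes past the test or else the 2 largest differences, and the 3 genes nearest to Fos, Fosl1 and Egr1. Atf3, the Nr4a genes, Csrnp1, Klf2, Ier3, Lyz2, Cd14, Cd68, Itgam, Adgre1, Fcer1a, Col1a1, Col1a2 and Itgb1 fall outside this rule. They were added after their values were seen. In Ta replicate 2 and in Ti replicate 3, 100% of the deposited intensities hold at most 3 significant digits, and 93 gene names in either table are not those of Ta replicate 1. Alternatives tried were other scalings, normexp (offset 50), filters, probe means, array weights, moderation settings, blocks and leaving out each array; rounding every array to 3 digits was added after the data were seen.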

Additional observations from a re-analysis of the deposited data

How the results depend on the processing

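With all arrays 812 genes and 3 members passed in limma. Normexp gave 2652 and 5, no filter on dim probes 0 and 0, slide row as a block 0 and 0, array weights 10160 and 8, and trended robust moderation 2084 genes. The replicate block gave 8 genes and 0 members, with adjusted p 0.0664 for Fosb (−1.16), 0.0996 for Fosl2 (0.85) and 0.0791 for Egr1 (−0.98). Correlations of same-numbered arrays, after removing group means, were 0.06, 0.13 and −0.18, and those of differently numbered arrays ran from −0.18 to 0.18. These values cannot show whether same-numbered cultures share more than a number. Leaving out 1 array gave 0 to 3210 genes, 0 to 6 members, and a member spread of 0.116 to 0.240.

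Fos passed at −1.50 with a filter on all 6 arrays and with trended robust moderation, at −0.51 with normexp and at −1.60 with array weights. Fosb (−1.16), Fosl2 (0.85) and Egr1 (−0.98) did not pass without a filter or, at −1.45, 0.76 and −1.03, with slide row as a block; Fosl2 also did not with probe means (0.77). With array weights (7.37 for Ta replicate 2, 0.319 to 2.74 for the rest), Fosl1 (0.35), Jun (−0.23), Junb (−0.32) and Egr2 (−2.35) also passed; normexp passed Egr2 (−1.55). Jund turned to 0.022 with slide row as a block, 0.014 without Ta replicate 2 and 0.037 without Ta replicate 3. Leaving out 1 array gave −1.82 to −1.18 for Fos, −1.27 to −1.01 for Fosb, 0.12 to 0.37 for Fosl1, 0.74 to 0.98 for Fosl2, −0.13 to 0.037 for Jund, −1.16 to −0.88 for Egr1 and −2.42 to −1.44 for Egr2. The cause of these changes was not tested. Dim signal limits Fos, Fosb and Egr3.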
